A study of Mus musculus with 3 samples.

Results

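The genes described here are transcription factors that record position along the body: 8 of 9 listed genes, namely Hoxa5, Hoxa6, Hoxb5, Hoxb6, Hoxb7, Hoxc8, Meox2 and Tbx15, out of 7842 named genes in the table. They were taken by name, with all 11 probe sets annotated to exactly 1 of these symbols. The list was selected on the signals of these same arrays, so the differences below are descriptions and none is a test. The remaining listed gene, Hoxc6, had no probe set matched to its symbol or gene identifier and is not analysed here.

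RNA came from cultured mouse dermal fibroblasts of 3 genotypes, with 1 Affymetrix array column each. FGFR3Act cells came from mice with the Fgfr3 allele G374R without the neo cassette, whose receptor tyrosine kinase signals without ligand. FGFR3KO cells came from mice that carry the same G374R allele but keep the neo cassette. The labels describe these cells as lacking a working receptor. The FGFR3WT culture was from Bl6 mice with the wild-type gene. None of the cultures was treated. The sources used here do not give the strain background of the mutant mice, the age of the animals or the body site of the skin. The series states n = 3 per group, but it is not stated how many cultures a column holds. Without replicate columns there is no SD, and no p-value is given. Every difference is one between arrays, and the number of arrays limits the precision.

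Hox genes encode homeodomain proteins and lie in clusters in which gene order matches the order of expression along the head-to-tail axis. A Hox gene's number is its paralogue group, and members of a group in different clusters have related sequences and overlapping functions. Fibroblasts in culture retain a pattern of Hox expression that depends on the body site they came from. Meox2 encodes a homeodomain protein of the somites and limb muscle precursors, and Tbx15 a T-box protein that in mice shapes the skeleton and the boundary between back and belly coat colour.

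In the RefSeq gene table of assembly GRCm38.p6, Hoxb7, Hoxb6 and Hoxb5 follow each other without another protein-coding gene between them on chromosome 11, and Hoxa5 and Hoxa6 do so on chromosome 6. Hoxc8 lies between Hoxc9 and Hoxc6 on chromosome 15. Meox2 and Tbx15 stand outside the clusters, on chromosomes 12 and 3. RefSeq promoter sequences, which run from 250 bases before to 50 bases after the gene start, were matched for 3 of the 9 listed genes. All 3 are shown, since no promoter was matched for the other listed genes. Of the 3, Meox2 differed most between arrays, and Hoxa5 and Hoxa6 are neighbours of which Hoxa6 alone had a probe set with comparable signal. Capitals mark the homeodomain core TAAT on either strand (ATTA on the other strand), with overlapping matches joined. The windows are chr12:37108290-37108589 on the plus strand for Meox2, chr6:52204538-52204837 on the minus strand for Hoxa5 and chr6:52208623-52208922 on the minus strand for Hoxa6, each 5′ to 3′ in GRCm38.p6.
Meox2: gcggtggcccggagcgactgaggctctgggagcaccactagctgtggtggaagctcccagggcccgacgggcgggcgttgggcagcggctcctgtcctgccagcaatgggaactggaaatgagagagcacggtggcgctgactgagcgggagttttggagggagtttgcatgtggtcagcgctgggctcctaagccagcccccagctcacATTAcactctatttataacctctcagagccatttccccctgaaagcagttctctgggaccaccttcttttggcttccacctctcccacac
Hoxa5: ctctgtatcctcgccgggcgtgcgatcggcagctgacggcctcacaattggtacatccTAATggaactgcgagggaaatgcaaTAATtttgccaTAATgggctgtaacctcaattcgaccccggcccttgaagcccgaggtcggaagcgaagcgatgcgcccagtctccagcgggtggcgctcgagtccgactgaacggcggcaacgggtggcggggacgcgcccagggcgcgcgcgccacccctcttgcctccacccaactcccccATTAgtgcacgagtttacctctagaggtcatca
Hoxa6: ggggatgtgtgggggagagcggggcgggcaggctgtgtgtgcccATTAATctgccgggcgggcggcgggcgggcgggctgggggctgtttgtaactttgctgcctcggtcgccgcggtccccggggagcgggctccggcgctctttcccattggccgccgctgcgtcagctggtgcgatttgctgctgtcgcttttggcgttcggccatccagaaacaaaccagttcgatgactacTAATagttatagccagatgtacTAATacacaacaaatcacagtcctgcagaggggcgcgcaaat
The TAAT core occurred 1 time in the Meox2 window, 4 times in the Hoxa5 window and 4 times in the Hoxa6 window. Of 32851 promoter windows of 300 bases, 58.0% held it on either strand. The TATA box letters TATAAA, read on either strand, occurred once in the Meox2 window and in neither Hoxa window, against 13.6% of all windows. The Meox2 match starts 29 bases before the gene start and lies on the strand opposite to the gene, so the printed window reads tttata there. The HOX-PBX motif TGATNNAT, read on either strand and able to overlap TAAT, was in none of the 3 windows and in 8.85% of all windows. These matches describe letters in the windows.

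The values are MAS5 signals, which are linear intensities per probe set. Low MAS5 signals are unreliable, so each array was given a floor, the 40th percentile of its probe sets without the controls. It was 123 on FGFR3Act, 122 on FGFR3KO and 121 on FGFR3WT. A pair of arrays was compared for each gene that exceeded the floor on at least 1 of them, lower signals were raised to the floor, and a fold against a floored signal is written as "at least". Where a gene had several probe sets, the one with the highest mean log2 signal represented it. All 14 fibroblast markers on the array were above the floor on each of the 3 arrays, and their summed signals were 72313 on FGFR3Act, 109547 on FGFR3KO and 81387 on FGFR3WT. Of 20 macrophage and leukocyte markers, FGFR3Act had 17 above the floor, FGFR3KO 2 (Cd14 and Cd52) and FGFR3WT 1 (Cd14), and the summed signals were 43656, 1661 and 1440 in that order. Fgfr3, the gene altered in the mice, gave no check of the labels, since FGFR3Act had 2.42, FGFR3KO 3.76 and FGFR3WT 1.06, all far below the floor.

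Most of these genes lay near or below the floor, most often below it on the wild-type array. Of the 8 genes measured, FGFR3Act had 1 below the floor (Hoxa5), FGFR3KO 2 (Hoxa5 and Meox2) and FGFR3WT 5 (Hoxa5, Hoxa6, Hoxb5, Hoxb6 and Hoxc8). So 7, 6 and 3 of them were above it in that order. Of all 7842 genes, 4932 were above it on FGFR3Act, 4967 on FGFR3KO and 4947 on FGFR3WT. Because the 8 genes were picked with these values known, nothing is read from the contrast. Near the threshold lay Hoxb7 on FGFR3WT at 121 and Hoxb5 on FGFR3Act at 134, just above it, and Meox2 on FGFR3KO at 107 and Hoxb5 on FGFR3WT at 105, just below it. Fewer cells making a transcript and less of it per cell cannot be told apart in such bulk samples.

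**Figure D1:**
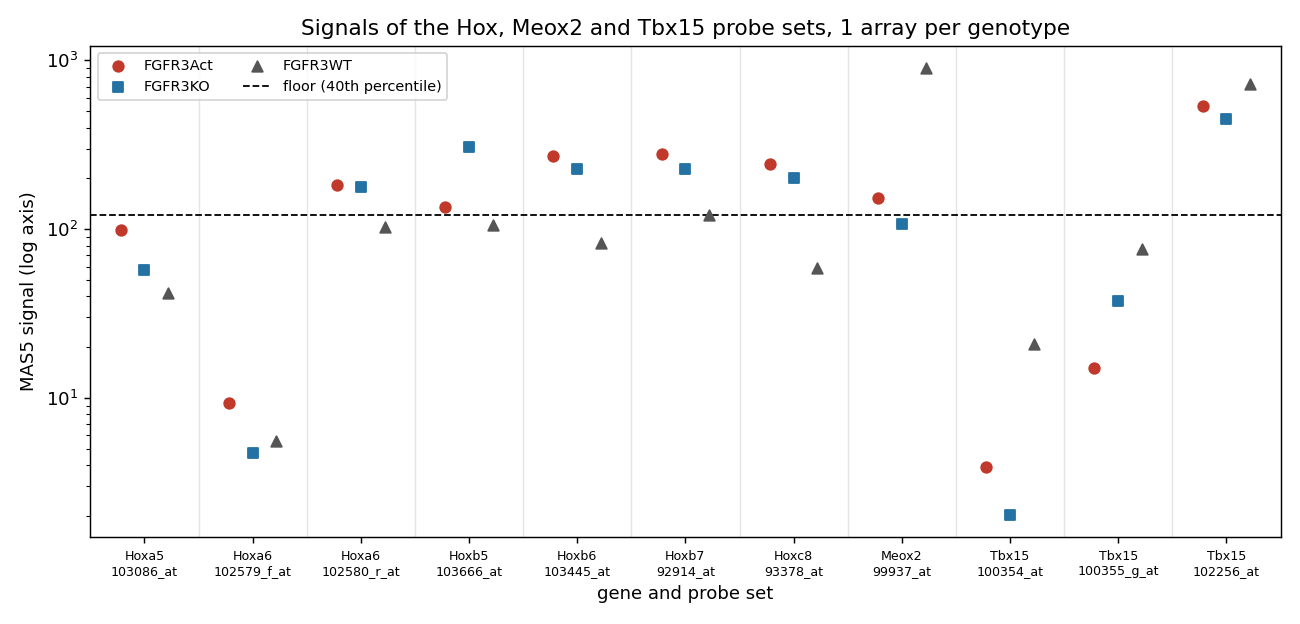
MAS5 signal on a logarithmic axis for each of the 11 probe sets of the 8 genes, with a point per array (FGFR3Act, FGFR3KO and FGFR3WT from left to right) and the floor as a dashed line at the mean of the 3 floors. Hoxb6 and Hoxc8 lie above the floor on both mutant arrays and below it on FGFR3WT, and Meox2 stands at 898 on FGFR3WT against 152 on FGFR3Act and 107 on FGFR3KO.

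Of the Hoxb genes, Hoxb7 was above the floor on all arrays, on FGFR3WT only just. It had a signal of 277 for FGFR3Act, 228 on FGFR3KO and 121 on FGFR3WT, for probe set 92914_at. Against FGFR3WT, FGFR3Act was 2.28-fold higher and FGFR3KO 1.88-fold higher. The mutant arrays differed from each other by 1.22-fold. Hoxb7 belongs to the trunk-expressed middle of its cluster. A further probe set, annotated to both Hoxb7 and its neighbour Hoxb8, was left out because it has 2 symbols. It had 184 on FGFR3Act, 254 on FGFR3KO and 208 on FGFR3WT. This is not the order seen for 92914_at, since FGFR3Act was its lowest array.

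Hoxb6, the next gene along the cluster, had signals of 272 for FGFR3Act, 227 on FGFR3KO and 83.0 on FGFR3WT. It was above the floor on both mutant arrays and below it on wild type. The fold was at least 2.25 higher on FGFR3Act than on FGFR3WT and at least 1.88 higher on FGFR3KO than on FGFR3WT. The third neighbour, Hoxb5, went differently. Its signal was 134 on FGFR3Act, 307 on FGFR3KO and 105 on FGFR3WT, so FGFR3KO alone stood well clear of the floor. Against FGFR3WT the fold was at least 1.11 higher on FGFR3Act and at least 2.54 higher on FGFR3KO, and FGFR3Act was 2.28-fold lower than FGFR3KO. Hoxb5 was the only one of the 7 comparable genes at least 2-fold apart between the mutants.

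Hoxc8, which patterns the thoracic skeleton and the motor neurons of the forelimb, had 243 on FGFR3Act, 201 on FGFR3KO and 59.2 on FGFR3WT. Its order of arrays was that of Hoxb6 and Hoxb7. Against FGFR3WT the fold was at least 2.01 higher on FGFR3Act and at least 1.67 higher on FGFR3KO. Hoxa5, which helps set the neck-to-thorax transition and lung development, had 98.3 on FGFR3Act, 57.6 on FGFR3KO and 42.1 on FGFR3WT. All were below the floor, so it has no order. Hoxa6 had 182 on FGFR3Act, 177 on FGFR3KO and 103 on FGFR3WT for probe set 102580_r_at, which gives folds over FGFR3WT of at least 1.51 on FGFR3Act and at least 1.46 on FGFR3KO. Its other probe set, 102579_f_at, had 9.28 on FGFR3Act, 4.70 on FGFR3KO and 5.57 on FGFR3WT, all far under the floor. The 2 probe sets thus disagree on whether Hoxa6 is above the floor on the mutant arrays.

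Meox2 had by far the widest spread of these genes. Its single probe set, 99937_at, had 152 on FGFR3Act, 107 on FGFR3KO and 898 on FGFR3WT. Only the wild-type array was well above the floor. Against FGFR3WT, Meox2 was 5.89-fold lower on FGFR3Act and at least 7.36-fold lower on FGFR3KO. The mutants differed from each other by at least 1.25-fold, with FGFR3Act higher. Its paralogue Meox1, the other member of this small family and also active in somites, was below the floor on every array, at 48.1 on FGFR3Act, 55.0 on FGFR3KO and 55.4 on FGFR3WT.

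Tbx15, like Meox2, was lower on both mutant arrays than on wild type, but by less than 2-fold. The probe set that was above the floor, 102256_at, had 533 on FGFR3Act, 447 on FGFR3KO and 723 on FGFR3WT. It was 1.36-fold lower on FGFR3Act and 1.62-fold lower on FGFR3KO, each against FGFR3WT. Its other probe sets were below the floor on all arrays. Of these, 100354_at had 3.92 on FGFR3Act, 2.03 on FGFR3KO and 20.9 on FGFR3WT. For 100355_g_at the signals were 15.0, 37.5 and 76.7 in the same order. Of the 6 other T-box and Meox genes on the array, 5 were below the floor on every array by the probe set that represented them. The exception was Tbx6, a regulator of somite formation, with 121 on FGFR3Act, 121 on FGFR3KO and 141 on FGFR3WT. A further Tbx2 probe set, 92705_at, was above the floor on FGFR3KO alone, with 32.9 on FGFR3Act, 153 on FGFR3KO and 72.3 on FGFR3WT.

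**Figure D2:**
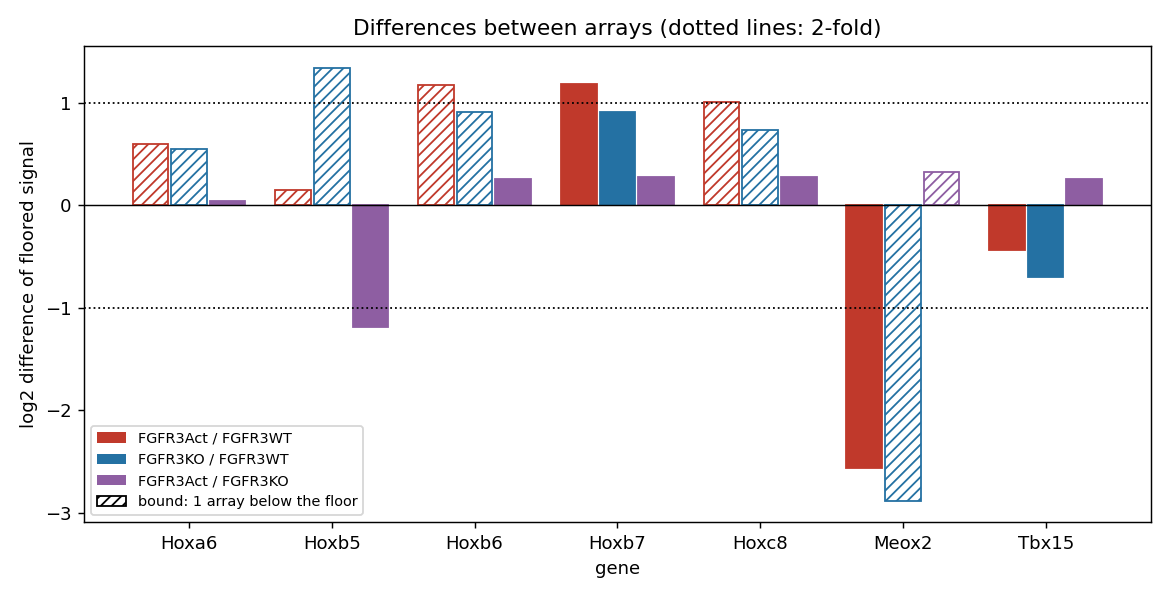
Log2 difference of floored signal for the 7 genes above the floor on at least 1 array of a pair, with bars for FGFR3Act over FGFR3WT, FGFR3KO over FGFR3WT and FGFR3Act over FGFR3KO; hatched bars are bounds because 1 array was below the floor, and dotted lines mark 2-fold. Hoxa6, Hoxb5, Hoxb6, Hoxb7 and Hoxc8 lie above 0 in both pairs with FGFR3WT, and Meox2 lies at -2.56 and at most -2.88.

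Counted together, 3 of 7 comparable genes reached 2-fold or more above FGFR3WT on FGFR3Act (Hoxb6, Hoxb7 and Hoxc8), beside 4.14% of 5244 genes over the whole table. Meox2, 1 of 7, was 2-fold or more below FGFR3WT there, beside 4.79%. Among the 3070 genes whose brighter signal in that pair lay in the range of these 7, the shares were 3.71% and 4.59%. On FGFR3KO against FGFR3WT, 1 of 7 was above by 2-fold or more (Hoxb5) beside 1.93% of 5184 genes, and 1 of 7 below (Meox2) beside 3.61%. On FGFR3Act against FGFR3KO, 0 of 7 were above by that much beside 8.33% of 5297 genes, and 1 of 7 below (Hoxb5) beside 7.49%. Because the genes were picked with these values known, nothing is read from the shares. Their median log2 difference was 0.60 on FGFR3Act against FGFR3WT (all genes -0.07), 0.74 on FGFR3KO against FGFR3WT (all genes -0.02) and 0.26 on FGFR3Act against FGFR3KO (all genes -0.05). These medians depend on the floor. With only genes above the floor on both arrays, the first was -0.44, and with a 60th percentile floor the first was -0.93 and the second -1.02, because Meox2 and Tbx15 then make up most or all of what is left. With a floor at the 20th percentile, 3 genes in place of 1 passed 2-fold upward on FGFR3KO against FGFR3WT, Hoxb6 and Hoxc8 being added.

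The pairs with FGFR3WT share that array, so a low or high wild-type signal moves both at once. Hoxa6, Hoxb5, Hoxb6, Hoxb7 and Hoxc8, 5 of the 7 genes compared in both pairs, were higher on both mutants than on FGFR3WT by some amount, beside 21.2% of 5046 genes. Meox2 and Tbx15 were lower on both, beside 32.0%. Meox2 was at least 2-fold lower on both mutants, as were 0.436% of genes, and 0 of the 7 were at least 2-fold higher on both, beside 0.119%. The macrophage and leukocyte markers did not follow this pattern. Their median signal was 1324 on FGFR3Act, 48.8 on FGFR3KO and 40.3 on FGFR3WT, so FGFR3KO stood with FGFR3WT for the markers and with FGFR3Act for Hoxb6, Hoxb7, Hoxc8 and Meox2. The part of those other cells in the FGFR3Act values was not tested.

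The rest of the Hox family was mostly below the floor. Of 32 other Hox genes, 24 were on the array and 20 of these were below the floor on all 3 arrays. In paralogue groups 5 to 8, 6 of 10 genes were above the floor on at least 1 array (Hoxa6, Hoxb5, Hoxb6, Hoxb7, Hoxc8 and Hoxd8), with 6 on FGFR3Act, 6 on FGFR3KO and 2 on FGFR3WT. In groups 1 to 4, 2 of 8 were (Hoxa2 and Hoxa4), and in groups 9 to 13, 1 of 12 (Hoxc9). The 6 measured Hox genes picked with values known all belong to groups 5 to 8, so this distribution partly restates the choice. None of the 4 other Hox genes comparable on FGFR3Act against FGFR3WT was at least 2-fold apart, nor were any of the 3 on FGFR3KO against FGFR3WT.

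Hoxd8, the paralogue of Hoxc8 and Hoxb8 in the Hoxd cluster, had 895 on FGFR3Act, 706 on FGFR3KO and 487 on FGFR3WT, again highest on FGFR3Act and lowest on wild type. The folds over FGFR3WT were 1.84 on FGFR3Act and 1.45 on FGFR3KO. Its second probe set had 154 on FGFR3Act, 205 on FGFR3KO and 78.3 on FGFR3WT, with the mutants in the other order. Hoxc9, next to Hoxc8, had 143 on FGFR3Act, 78.5 on FGFR3KO and 17.5 on FGFR3WT, so it was above the floor on FGFR3Act alone. Hoxa2, a hindbrain and second pharyngeal arch gene, had 230 on FGFR3Act, 185 on FGFR3KO and 208 on FGFR3WT, at most 1.25-fold apart in any pair. Hoxa4 had 441 on FGFR3Act, 956 on FGFR3KO and 772 on FGFR3WT, which is 2.17-fold lower on FGFR3Act than on FGFR3KO. Its other 2 probe sets were below the floor on all arrays, so this difference rests on 1 of 3 probe sets.

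**Figure D3:**
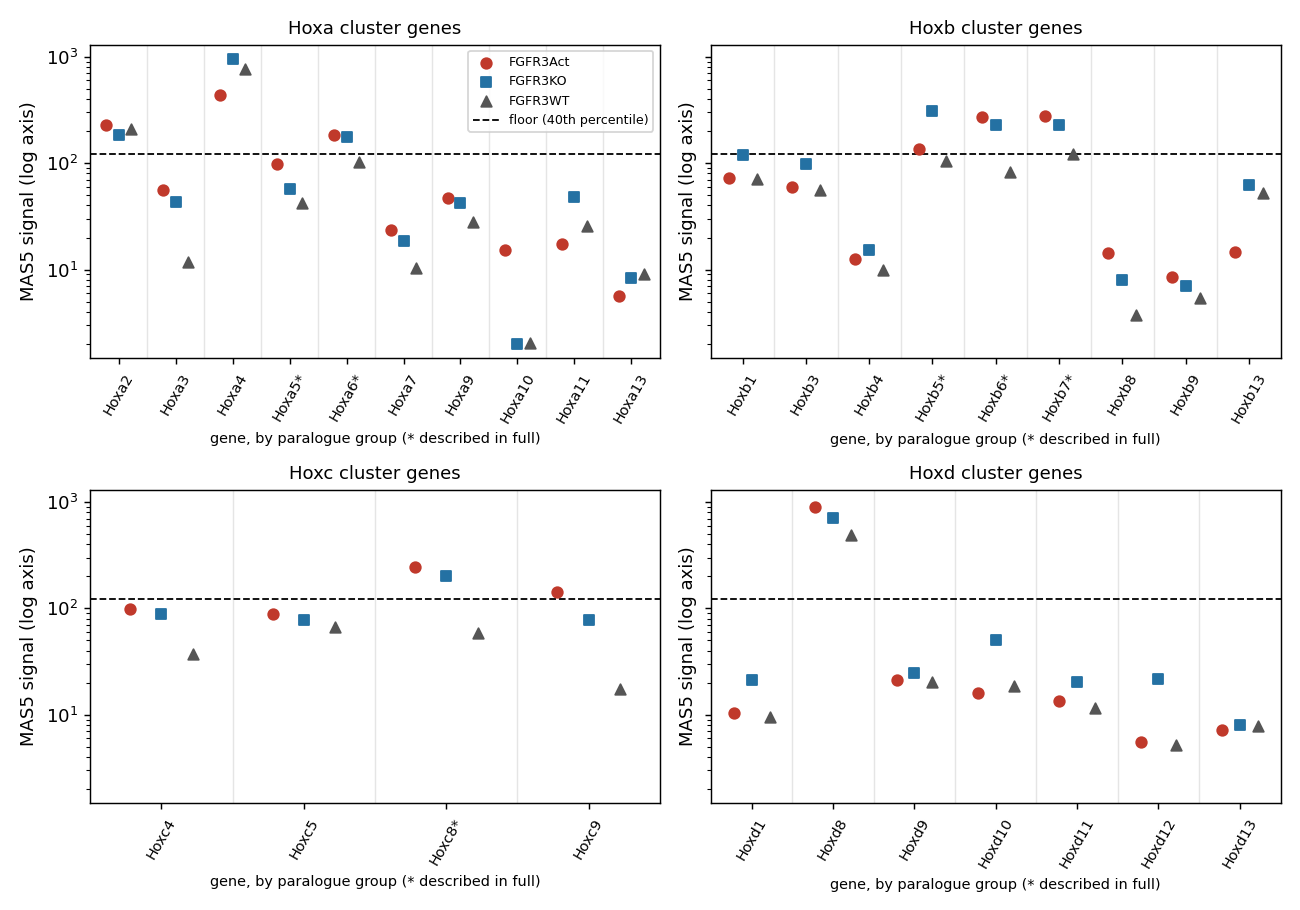
MAS5 signal on a logarithmic axis for the 30 Hox genes on the array, in a panel for each cluster and in the order of their paralogue groups, with a point per array (FGFR3Act, FGFR3KO and FGFR3WT from left to right) and the floor as a dashed line. Genes described in full carry an asterisk; 21 of the 30 lie below the floor on all arrays, where the points have no order.

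Hox proteins bind DNA together with cofactors of the PBC and MEIS classes, and 4 of the 6 such genes with probe sets were comparable. None of the 4 was at least 2-fold apart on FGFR3Act or on FGFR3KO against FGFR3WT. Pbx3 had 1046 on FGFR3Act, 2929 on FGFR3KO and 1850 on FGFR3WT, which is 2.80-fold lower on FGFR3Act than on FGFR3KO. Its other probe sets gave 400 on FGFR3Act against 478 on FGFR3KO, and 117 against 172, which are smaller differences in the same direction. The signal of 117 was below the floor. Both of these probe sets were highest on FGFR3WT, at 524 and 205. With the mean over probe sets, Pbx3 was under 2-fold between the mutants. Meis1 had 152 on FGFR3Act, 209 on FGFR3KO and 195 on FGFR3WT.

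Among other factors that mark limb, trunk or face mesenchyme, Pax3 alone had folds below FGFR3WT near those of Meox2. Probe sets were present for 35 such factors, and 20 of these were comparable in each pair with FGFR3WT. Of these 20, 0 were above by 2-fold or more on FGFR3Act and 2 below (Pax3 and Six2), and on FGFR3KO 1 was above (Zic1) and 1 below (Pax3). On FGFR3Act against FGFR3KO, 19 could be compared, with 1 above (Shox2) and 3 below (Six2, Lhx8 and Zic1). Pax3, a factor of the dermomyotome, muscle precursors and neural crest, had 14.2 on FGFR3Act, 52.8 on FGFR3KO and 809 on FGFR3WT. Like Meox2, it was well above the floor on the wild-type array alone. The fold was at least 6.60 lower on FGFR3Act and at least 6.64 lower on FGFR3KO, each against FGFR3WT. Among the lineages that use Pax3, 6 melanocyte and Schwann cell markers were on the array, with 1 above the floor for FGFR3Act, 2 for FGFR3KO and 1 for FGFR3WT. Of 6 skeletal muscle markers 3, 4 and 3 were above it in the same order. The summed signals of the muscle markers were 701 on FGFR3Act, 1943 on FGFR3KO and 1298 on FGFR3WT. Acta1 alone gave 221, 1256 and 838 of these in the same order. The other muscle markers above the floor on every array, Myod1 and Tnnt1, were less than 2-fold apart in each pair. For the melanocyte and Schwann cell markers the summed signals were 504 on FGFR3Act, 651 on FGFR3KO and 407 on FGFR3WT.

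Zic1, a zinc finger factor of dorsal neural tube and dorsal somite, showed the opposite picture. Its signal was 209 on FGFR3Act, 513 on FGFR3KO and 51.1 on FGFR3WT, below the floor on wild type alone. The fold was at least 1.73 higher on FGFR3Act and at least 4.25 higher on FGFR3KO, each against FGFR3WT, and the signal was 2.46-fold lower on FGFR3Act than on FGFR3KO. Six2, a head and kidney mesenchyme factor, had 81.5 on FGFR3Act, 442 on FGFR3KO and 273 on FGFR3WT. It was at least 2.22-fold below FGFR3WT on FGFR3Act, and on FGFR3Act at least 3.60-fold below FGFR3KO. Lhx8, a factor of the face and forebrain, had 78.1 on FGFR3Act, 415 on FGFR3KO and 235 on FGFR3WT, which puts FGFR3Act at least 3.38-fold below FGFR3KO. Six2 and Lhx8 were below the floor on FGFR3Act alone, as was Barx1 with 13.6 on FGFR3Act, 163 on FGFR3KO and 131 on FGFR3WT. FGFR3Act is also the array with the macrophage markers, and the part of those cells in these values was not tested. The general mesenchyme factors Twist1 (1038, 1450 and 1627 on FGFR3Act, FGFR3KO and FGFR3WT), Prrx2 (1346, 2248 and 2212) and Snai2 (2312, 1594 and 2199) were above the floor on every array and less than 2-fold apart from FGFR3WT. So was Twist2 (1701, 1708 and 1108 in the same order). Twist2 was higher than FGFR3WT on both mutants, 1.53-fold on FGFR3Act and 1.54-fold on FGFR3KO. Shox2, a limb factor, had 1405 on FGFR3Act, 673 on FGFR3KO and 768 on FGFR3WT, 2.09-fold higher on FGFR3Act than on FGFR3KO, and its second probe set was below the floor throughout.

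**Figure D4:**
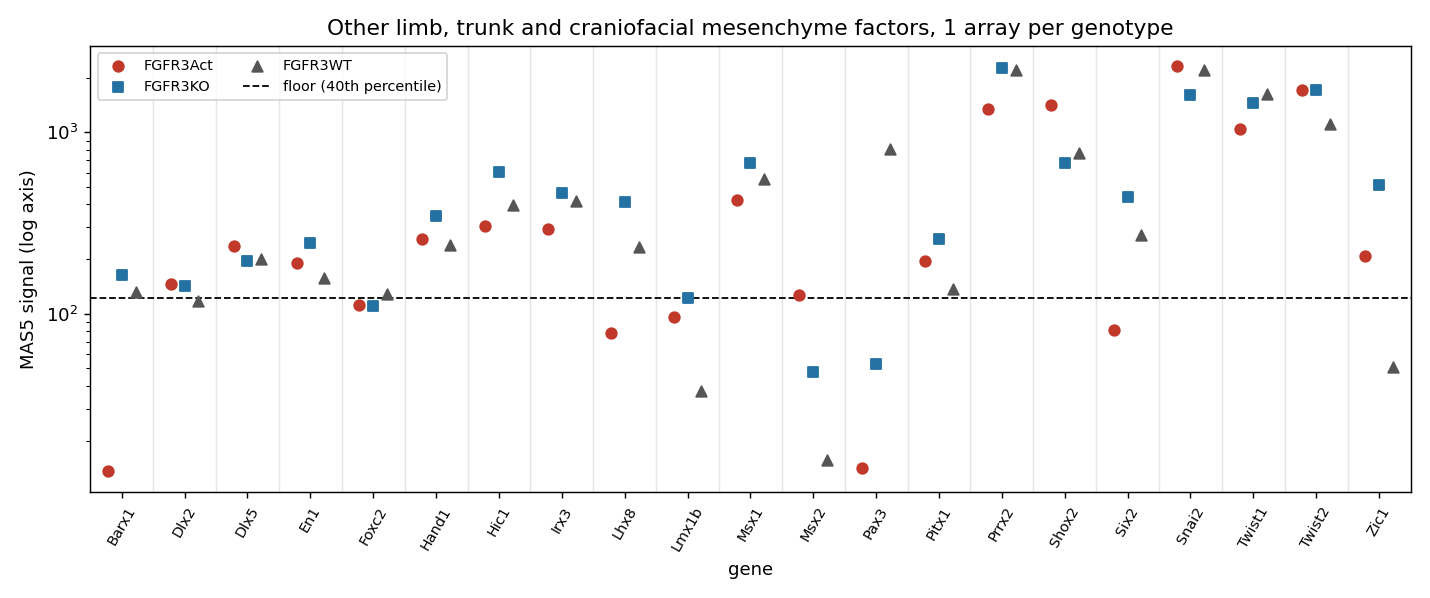
MAS5 signal on a logarithmic axis for the 21 other limb, trunk and craniofacial mesenchyme factors above the floor on at least 1 array, with a point per array (FGFR3Act, FGFR3KO and FGFR3WT from left to right) and the floor as a dashed line. Pax3 is above the floor on FGFR3WT alone, at 809, and Zic1 is below it there, at 51.1.

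Among Polycomb and Trithorax genes, which silence Hox clusters or keep them active, 16 of 21 with probe sets were comparable. On FGFR3Act 1 was 2-fold or more above FGFR3WT (Suz12) and 0 below, and on FGFR3KO 0 were above and 1 below (Bmi1). Suz12, a subunit of the complex that methylates histone H3 at Polycomb targets, had 896 on FGFR3Act, 348 on FGFR3KO and 398 on FGFR3WT, 2.25-fold higher on FGFR3Act. Its second probe set was below the floor on all arrays, and with the mean over probe sets it was under 2-fold. Bmi1, a subunit of the complex that ubiquitinates histone H2A, had 2257 on FGFR3Act, 1190 on FGFR3KO and 2388 on FGFR3WT, 2.01-fold lower on FGFR3KO, just past the 2-fold mark. It was less than 2-fold apart after quantile normalisation, median centring or cyclic loess, and with an offset instead of a floor. On FGFR3Act against FGFR3KO, Suz12 was 2.58-fold higher, Phc2 3.19-fold lower and Phc1 at least 2.02-fold lower. The methyltransferase Ezh2 had 273 on FGFR3Act, 484 on FGFR3KO and 376 on FGFR3WT. The Trithorax gene Kmt2a had 665, 334 and 412 in that order. Its second probe set was also above the floor on every array, at 151, 200 and 168. There FGFR3Act was lowest and FGFR3KO highest, so the probe sets disagree on the order.

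Retinoic acid is a classical inducer of Hox genes, and 6 of 13 genes of its receptors and handling could be compared. On FGFR3Act 2 were 2-fold or more above FGFR3WT (Aldh1a1 and Crabp1) and 0 below, and on FGFR3KO 1 was above (Crabp1) and 1 below (Aldh1a1). Crabp1, which binds retinoic acid in the cytosol, had 1191 on FGFR3Act, 698 on FGFR3KO and 333 on FGFR3WT. It shared the order of arrays of Hoxb6, Hoxb7 and Hoxc8, and was 3.57-fold higher on FGFR3Act and 2.09-fold higher on FGFR3KO, each against FGFR3WT. The retinoic acid synthesising enzyme Aldh1a1 did not share it, with 11271 on FGFR3Act, 306 on FGFR3KO and 1620 on FGFR3WT. The receptor genes Rarg (314, 459 and 336 on FGFR3Act, FGFR3KO and FGFR3WT) and Rxrb (1135, 1938 and 1559) were less than 2-fold apart in every pair. Rxra was 2.27-fold lower on FGFR3Act than on FGFR3KO, at 425 against 967. Its second probe set had 233 on FGFR3Act, 293 on FGFR3KO and 187 on FGFR3WT. That is a smaller difference between the mutants in the same direction.

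The genes whose differences lay nearest to those of Hoxb7 were found by Euclidean distance between the log2 differences of FGFR3Act and FGFR3KO from FGFR3WT. Hoxb7 was the only one of the described genes that was above the floor on every array and at least 2-fold from wild type, so the search was made for it alone, among 4502 other genes above the floor on all 3 arrays. Ptger4, a prostaglandin E2 receptor gene, was nearest at a distance of 0.08, with 454 on FGFR3Act, 347 on FGFR3KO and 195 on FGFR3WT. Ddx6, an RNA helicase gene, followed at 0.16 with 1088 on FGFR3Act, 976 on FGFR3KO and 530 on FGFR3WT. S100a3 came next at 0.21 with 250 on FGFR3Act, 206 on FGFR3KO and 121 on FGFR3WT. With 3 arrays many genes have like patterns by this measure, so the list describes likeness and no more.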

How the data were processed

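Total RNA of cultured dermal fibroblasts, 15 μg per sample, was labelled with biotin and hybridised to Affymetrix expression arrays, per the labels' protocols. The deposited table holds 1 linear intensity per probe set and sample, made with MAS5 per the submitters' processing notes. The sources used here give no version, scaling target or detection calls.

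The table has 9889 probe sets, 18 of them controls. GEO's platform annotation gives 9053 of them 1 symbol and 323 several; those with several, or none, were not named. Symbols were updated through gene identifiers with RefSeq's GRCm38.p6 table (9027 matched), which left 7842 genes. No scaling was added. Signals below the 40th percentile of non-control probe sets were raised to it before log2, and genes at least 2-fold apart were counted without a test. The arithmetic was checked on simulated arrays with known changes.

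The members, the related lists and the rule for named genes (all members, list genes past 2-fold, up to 4 of the highest signal in each list, and the 3 nearest patterns) were chosen with earlier results of these data known. Genes named beyond the rule (Hoxc9, Ezh2, Kmt2a, Rarg and Barx1) were chosen after their values were seen. The alternatives tried were 3 scalings, other floors or an offset of 12.2, other filters and other choices of probe set, 10 planned and 1 added after seeing the data. Python 3.11.15, pandas 2.3.3 and limma 3.58.1 (cyclic loess) were used.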

Additional observations from a re-analysis of the deposited data

How the results depend on the processing

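The direction of each gene's difference at least 2-fold apart was kept in every alternative that gave it a value. Of 202 recomputed differences of single genes, 198 stayed on their side of 2-fold and 4 passed it, all on FGFR3KO against FGFR3WT. These were Hoxb6 (log2 1.45) and Hoxc8 (1.77) with a 20th percentile floor, and the same genes (1.33 and 1.58) with the offset used instead of a floor. The 198 do not measure robustness. The other filters and the restrictions to certain probe set types repeated the main value wherever they gave one. The mean over probe sets did so for genes with 1 probe set. Hoxa6, Hoxb5, Hoxb6, Hoxb7 and Hoxc8 had no value at the 60th percentile floor and are not counted there. The scalings (quantile normalisation, median centring, cyclic loess) changed none of the counts of described genes at least 2-fold apart, and of the counts below the floor they changed 1, to 6 on FGFR3WT with cyclic loess. The floor and the filter did. At a floor of the 60th percentile, 7 genes were below it on FGFR3Act and 7 on FGFR3KO, 0 were at least 2-fold higher in either pair with FGFR3WT, 0 were 2-fold or more below FGFR3KO on FGFR3Act, and the medians turned to -0.93 on FGFR3Act and -1.02 on FGFR3KO, each against FGFR3WT. At a floor of the 20th percentile, 0 genes were below it on any array, and 3 were at least 2-fold higher on FGFR3KO than on FGFR3WT, as with the offset (3). With only genes above the floor on both arrays, 1 was at least 2-fold higher on FGFR3Act and the median was -0.44, while on FGFR3KO 0 were higher, 0 lower and the median was 0.11, because fewer genes were compared. For the other Hox genes, 1 was above FGFR3WT by 2-fold or more on FGFR3Act with cyclic loess, 3 with a 20th percentile floor and 1 with the offset. On FGFR3KO 2 were with a 20th percentile floor. The 1 gene lower on FGFR3Act than on FGFR3KO, Hoxa4, gave 0 with the mean over probe sets and 0 with plain _at probe sets, as its other probe sets were below the floor. Counts of the other lists moved, by more than 1.5 times or to or from 0, in 35 of 300 recomputed values. Over all genes, cyclic loess put 249 genes at least 2-fold higher and 193 lower on FGFR3Act against FGFR3WT, beside 217 and 251 without it, and the 20th percentile floor put 458 and 432. On FGFR3KO against FGFR3WT that floor put 271 higher and 321 lower, beside 100 and 187. No paired analysis was possible because each genotype has 1 column. Signals near the floor limit every Hox value given here, and the spread between cultures is unknown.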
